A study of Mus musculus with 6 samples.

Results

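The genes described here encode the proteins of the mitochondrial ribosome. They were the 78 rows of the count table whose symbol is Mrpl or Mrps followed by a number, 49 Mrpl genes (named for the large subunit) and 29 Mrps genes (named for the small subunit), among 55291 genes in all. RNA-seq was performed on bone marrow-derived macrophages (BMDMs), primary macrophages grown from marrow cells, of 3 C57BL/6 WT mice (libraries 1, 5 and 6) and 3 C57BL/6 PYK2 KO mice (libraries 2, 3 and 4). PYK2 is a non-receptor tyrosine kinase encoded by Ptk2b, and the KO mice lacked it in the whole body, so the marrow of these mice was PYK2-deficient before culture. Both genotypes were cultured for 7 days in medium with L929-conditioned medium as the M-CSF source, with no further stimulus and no other allele named, and the age and sex of these mice were not given in the sources used here. Each library came from 1 mouse, and the libraries sequence the 3′ end of each transcript (bulk MARS-seq), so counts are not proportional to transcript length.

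Mitochondria keep a small genome that encodes core subunits of the respiratory chain and ATP synthase, and its messengers are translated by a ribosome of their own. All proteins of that ribosome are encoded in the nucleus, made in the cytosol and imported, while its rRNAs are transcribed inside the organelle. Some of these proteins descend from bacterial ribosomal proteins and others were added in the mitochondrial lineage. Symbol and position do not always match: Mrps18a and Mrps30 sit in the large subunit, and Mrps36 is now known as a subunit of the 2-oxoglutarate dehydrogenase complex of the citric acid cycle.

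The members were spread over 17 chromosomes of GRCm38 (the genome build called mm10; GENCODE M21 annotation), with at most 11 on a single chromosome. A frequent layout was a start facing that of another gene: for 26 of the 78 members (33.3%), the start of a protein-coding gene on the opposite strand lay within 1000 bases, against 15.3% of the 9287 tested protein-coding genes and 8.77% of all 21992. Mrpl46 and Mrps11, on chromosome 7, were such a pair made of members alone, with starts 30 bases apart. Mrpl43, on chromosome 19, started 116 bases from Twnk, the helicase that unwinds mitochondrial DNA, and Mrpl32, on chromosome 13, 75 bases from the proteasome subunit gene Psma2.

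Promoter sequence was available for 69 members (RefSeq, GRCm38.p6; 250 bases before to 50 after the start). These include Mrpl53, Mrps18b and Mrps30, which were not tested, whereas the shares of tested genes leave such genes out. The letters CCGGAAG, a core bound by ETS family factors, were found on either strand in 26 of them (37.7%), against 23.0% of 7752 tested genes and 9.93% of all 27025 genes with a promoter. Of the 31 matches, 26 began within 60 bases of the start. An NRF1 core (GCGCATGCG) was found in 7 members (10.1%, against 4.68% of tested genes) and a YY1 core (AAGATGGCG) in 8 (11.6%, against 4.26%). NRF1 and YY1 are both known regulators of nuclear genes for mitochondrial proteins. The letters TATAAA were in 5 (7.25%, against 7.99%) and CCAAT in 27 (39.1%, against 43.1%). Both strands were searched for every motif, matches of different motifs may overlap, and the median GC content was 58.3% in members and 61.3% in tested genes. A match is a run of letters and was not tested as a binding site.

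The last 100 bases before the RefSeq start are shown for 5 members: Mrpl33, the member with the smallest p-value below; Mrps26, the lower member with the smallest p-value; Mrpl9, with an NRF1 core; Mrpl58, a peptidyl-tRNA hydrolase that frees stalled ribosomes; and Mrps18a, with an ETS core here and a YY1 core 12 bases into the transcript. Capitals mark the ETS or NRF1 letters, all genes are on the plus strand of GRCm38.p6, and the windows are chr5:31613851-31613950 for Mrpl33, chr2:130563657-130563756 for Mrps26, chr3:94443236-94443335 for Mrpl9, chr11:115403652-115403751 for Mrpl58 and chr17:46110904-46111003 for Mrps18a. In Mrpl33 the ETS letters begin 3 bases before the start, and in Mrpl58 a second match begins 2 bases before it; both run past the window and are not in capitals. Gene positions elsewhere in the text are those of GENCODE M21, whose starts for Mrpl33, Mrps26, Mrpl9 and Mrps18a lie upstream of the RefSeq starts, so the last bases of these 4 windows fall inside the GENCODE gene.
Mrpl33: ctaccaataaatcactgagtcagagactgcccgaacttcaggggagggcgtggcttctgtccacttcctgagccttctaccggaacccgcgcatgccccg
Mrps26: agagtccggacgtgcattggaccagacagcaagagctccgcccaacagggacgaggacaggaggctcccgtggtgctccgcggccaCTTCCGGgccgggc
Mrpl9: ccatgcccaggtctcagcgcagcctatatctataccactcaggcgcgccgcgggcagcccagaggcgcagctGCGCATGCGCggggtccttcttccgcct
Mrpl58: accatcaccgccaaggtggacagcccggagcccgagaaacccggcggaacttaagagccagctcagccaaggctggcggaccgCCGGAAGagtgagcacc
Mrps18a: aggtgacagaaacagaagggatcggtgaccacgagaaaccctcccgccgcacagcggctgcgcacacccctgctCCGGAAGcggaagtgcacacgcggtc

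Libraries held 2857097 to 3917207 counts, and libraries of the same genotype differed by more than sampling noise (chi-square per degree of freedom at least 2.15). None was thus a mere resampling of another library. This measure cannot tell separate preparations from the same mouse apart from those of different mice. Ptk2b had 737, 701 and 568 counts in the WT libraries against 71, 64 and 69 in the PYK2 KO libraries, a log2 fold change of -3.15 (SE, the standard error, 0.099; adjusted p = 1.03e-11 in edgeR's quasi-likelihood fit, Benjamini-Hochberg), which matched the labels. All 8 macrophage markers, among them Adgre1, Csf1r and Lyz2, were expressed in every library. Their summed levels were 29147 to 29897 CPM in WT against 30334 to 31331 CPM in PYK2 KO BMDMs. Lyz2 made up most of each sum, with a mean of 24068 CPM over the WT libraries against 25389 over the PYK2 KO libraries. By log2 fold change, 4 of the 8 markers were above and 4 below 0, with none at an unadjusted p-value under 0.05. Levels are given as CPM, counts scaled to a common library total with edgeR's TMM factors. B2m stood apart between libraries of the same genotype, with 3803, 939 and 607 counts in WT and 1631, 3020 and 5102 in PYK2 KO BMDMs, and its part in the results below was not tested.

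Of the 78 members, 75 (48 Mrpl and 27 Mrps) passed the filter on low counts. Their mean levels over all 6 libraries ran from 3.37 to 202 CPM with a median of 64.5 CPM, against 31.0 CPM for all 9815 genes tested. The median was 67.3 CPM for the Mrpl genes and 58.9 CPM for the Mrps genes.

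The most abundant large subunit genes were Mrpl57 (202 CPM), Mrpl20 (190 CPM), Mrpl28 (189 CPM) and Mrpl14 (170 CPM). Mrpl57 is a mitochondria-specific protein, and the other three have bacterial counterparts. Mrpl57 had 196, 206 and 189 CPM in WT against 226, 199 and 197 CPM in PYK2 KO BMDMs, and Mrpl20 had 167, 195 and 205 CPM and 197, 187 and 186 CPM. Mrpl28 ranged from 169 to 204 CPM and Mrpl14 from 156 to 183 CPM over the 6 libraries. Mrpl57 lay above Mrpl14 in every library, and the ranges of neighbours in this order overlapped.

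The most abundant small subunit genes by symbol were Mrps24 (149 CPM), Mrps15 (127 CPM), Mrps18a (104 CPM) and Mrps16 (103 CPM). Mrps24, the mitochondrial counterpart of a bacterial protein at the messenger entry, had 148, 155 and 154 CPM in WT against 148, 138 and 148 CPM in PYK2 KO BMDMs. Mrps15 had 134, 141 and 116 CPM in WT against 123, 128 and 123 CPM in PYK2 KO BMDMs. Mrps24 thus lay above Mrps15 in every library, whereas the library ranges of Mrps18a (93.9 to 113 CPM) and Mrps16 (89.4 to 110 CPM) overlapped.

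The 3 members that did not pass the filter were near 0 in both genotypes, and no fold change was computed for them. Mrpl53 had 1 count in WT 5 and none elsewhere. Mrps30 had 1, 2 and 1 counts in WT and 1, 0 and 0 in PYK2 KO BMDMs. Mrps18b had 8, 3 and 5 counts in WT and 4, 2 and 7 in PYK2 KO BMDMs. A total of 3 counts or fewer in a library was taken as the floor, so the levels of Mrpl53 and Mrps30 could not be told from 0, and counts at the 3′ end do not show whether the rest of a transcript was present.

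The comparison of genotypes asked which genes of resting BMDMs differed when PYK2 was absent. No member passed an adjusted p-value of 0.05 in edgeR's quasi-likelihood fit with Benjamini-Hochberg correction, against 25 of all 9815 genes tested (0.255%). At an unadjusted p-value under 0.05, Mrpl33, Mrpl13 and Mrps36 were higher (3 of 75; 3.40% of all genes tested) and Mrps26 was lower (1 of 75; 2.63% of all genes tested) in PYK2 KO BMDMs. Together these were 5.33% of the members and 6.03% of all genes, so the share of members was not above the background. DESeq2 and limma voom also called 0 members after adjustment, and 4 members had an unadjusted p-value below 0.05 with each.

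The direction of the members was balanced. Among the 75 members, 38 had a fold change above 1 and 37 below, and the median log2 fold change was 0.0018, with quartiles at -0.07 and 0.09, next to 0.0019 for all genes tested. The Mrpl genes had a median of -0.0019 (23 above and 25 below 0) and the Mrps genes 0.015 (15 above and 12 below). The 47 members with a bacterial counterpart had a median of -0.02 and the 27 mitochondria-specific members 0.0029. In bulk RNA, fewer cells of a type and less RNA per cell cannot be told apart.

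**Figure D1:**
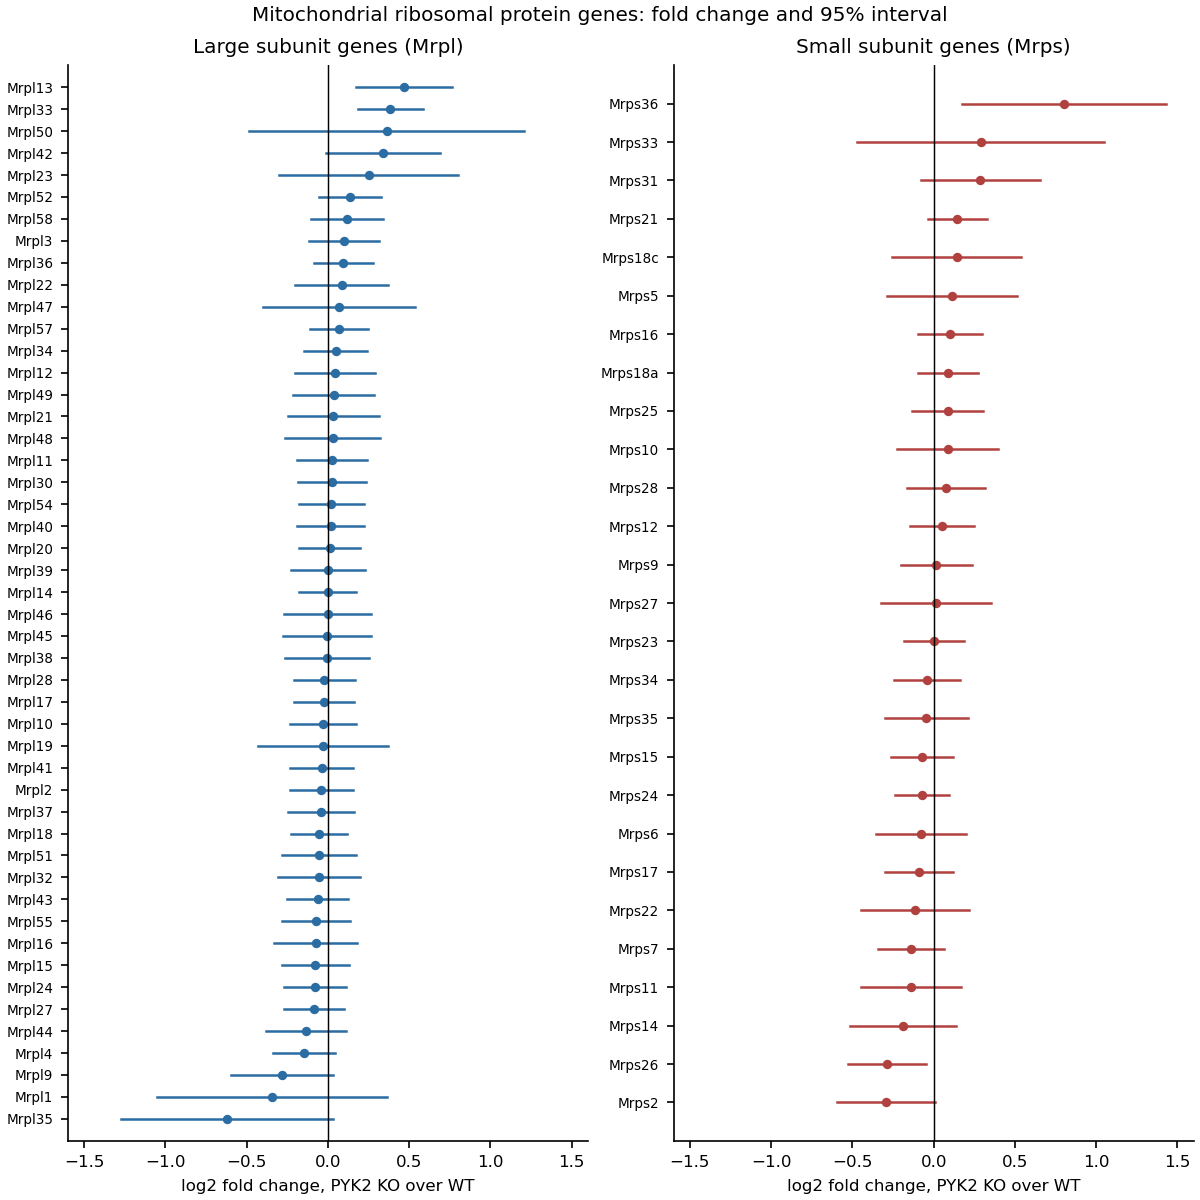
Log2 fold change of PYK2 KO over WT BMDMs (horizontal axis) for the 48 Mrpl genes (left) and 27 Mrps genes (right) tested, ordered by fold change; points are edgeR estimates and lines their 95% intervals over 3 mice per genotype. The intervals exclude 0 only for Mrpl13, Mrpl33, Mrps36 and Mrps26, and the widest belong to genes of low level such as Mrpl50.

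The data bounded the size of a change for most members. The median SE of a log2 fold change was 0.10 for members and 0.15 for all genes tested. The 95% interval lay within 1.5-fold in either direction for 64 of 75 members (85.3%), against 69.2% of all genes tested and 67.6% of the other genes between the lowest and highest member level, whose median level was 27.1 CPM and so below that of the members. It lay within 2-fold for 70 of 75 (93.3%), against 92.2% of all genes tested and 92.9% of the other genes in that range of levels, so the shares were nearly equal at this bound. Mrpl14 was among the best bounded, with a log2 fold change of -0.0019 and a 95% interval from -0.18 to 0.17, and Mrps24 had -0.07 (-0.04 without PYK2 KO 3), with an interval from -0.24 to 0.10.

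The median coefficient of variation over 3 libraries was 7.91% in WT and 6.94% in PYK2 KO BMDMs. The value for counting error alone, calculated from each member's mean count, had a median of 6.87%. A coefficient estimated from 3 libraries tends to fall below the true one, so these values are not directly comparable. Members with fewer counts had wider intervals. Of the 7 members with a log2 fold change beyond 0.3 in either direction, Mrps36, Mrpl35, Mrpl1 and Mrpl50 (the last pair chosen after their values were seen) were among the 5 least abundant of those tested. Mrpl50 had 10, 17 and 4 counts in WT and 11, 11 and 14 in PYK2 KO BMDMs, and its 95% interval ran from -0.48 to 1.21 on the log2 scale.

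**Figure D2:**
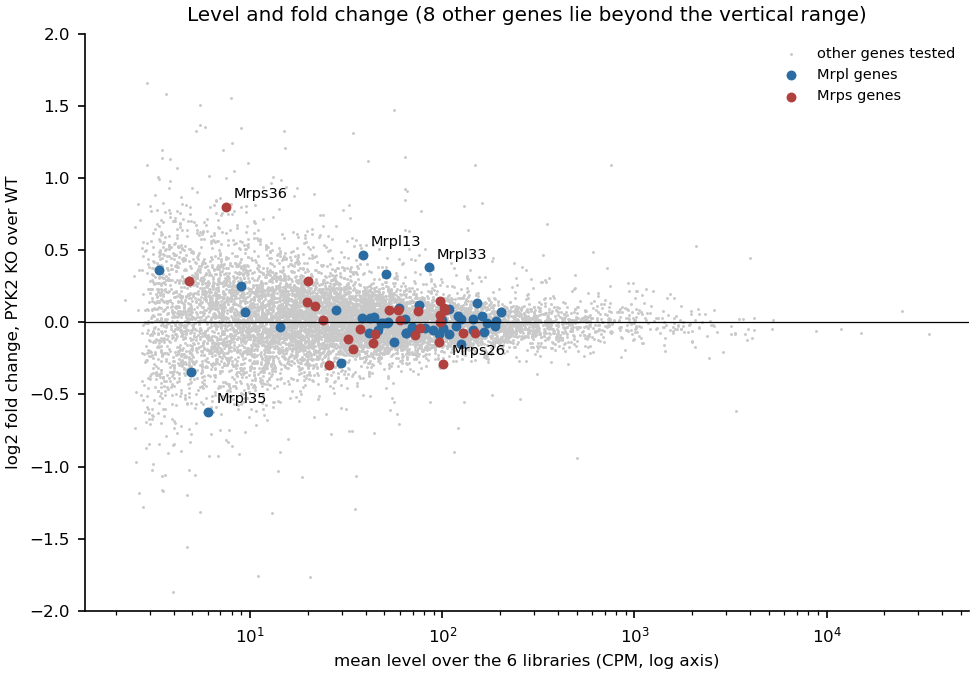
Mean level over the 6 libraries in CPM (horizontal log axis) against the log2 fold change of PYK2 KO over WT BMDMs (vertical axis) for Mrpl genes (blue), Mrps genes (red) and all other genes tested (grey). Members with levels near the top of their range, up to 202 CPM, lie close to 0, and Mrps36 (0.80) and Mrpl35 (-0.62) are the members farthest from it.

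Among the large subunit genes, Mrpl33 and Mrpl13 were higher in every PYK2 KO library than in any WT library. Mrpl33, a small protein with a bacterial counterpart, lies on chromosome 5 from 31613939 to 31622644. It had 79.9, 69.7 and 71.5 CPM in WT against 100.1, 89.7 and 99.0 CPM in PYK2 KO BMDMs, and the genotypes did not overlap. The mean was 73.7 ± 5.46 CPM in WT against 96.3 ± 5.69 CPM in PYK2 KO (mean ± SD, n = 3 mice each), with a fitted fold change of 1.30, or 0.38 on the log2 scale (SE 0.095, 95% interval 0.18 to 0.58). The unadjusted p-value was 0.000964 and the adjusted one 0.215 in edgeR's quasi-likelihood fit, Benjamini-Hochberg, so the difference did not pass. Without the filter on low counts, a setting in which 159 genes passed in place of 25, Mrpl33 did pass, with a log2 fold change of 0.38.

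Mrpl13, the counterpart of a bacterial protein that joins the ribosome early in its assembly, lies on chromosome 15 from 55534094 to 55557748. It had 36.0, 26.9 and 34.0 CPM in WT against 39.8, 45.4 and 48.9 CPM in PYK2 KO BMDMs, again without overlap. On the log2 scale the change was 0.47 (SE 0.14; adjusted p = 0.474 in edgeR's quasi-likelihood fit, Benjamini-Hochberg), from 32.3 ± 4.80 to 44.7 ± 4.59 CPM (SD, n = 3 mice each). For both genes a two-sided exact permutation test gave p = 0.1, the smallest that 3 against 3 mice allow. All 3 PYK2 KO libraries lay above all 3 WT libraries in 3 members, Mrpl33, Mrpl13 and Mrps21, as in 5.17% of all genes tested, and below in 3 members, Mrps2, Mrpl35 and Mrpl24 (the last outside the rule for named genes), as in 5.07%.

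Other large subunit genes with the smallest p-values went in both directions. Mrpl42, a mitochondria-specific protein, had 44.2, 41.4 and 49.4 CPM in WT against 40.4, 56.5 and 72.7 CPM in PYK2 KO BMDMs. The PYK2 KO libraries thus spanned the WT values, and the log2 fold change was 0.34 (SE 0.17), which became 0.11 without PYK2 KO 4 and 0.53 without PYK2 KO 2. Mrpl35 had 24, 21 and 29 counts in WT and 17, 10 and 17 in PYK2 KO BMDMs, without overlap in CPM but at low depth (log2 fold change -0.62, SE 0.31; -0.35 without WT 6). Mrpl9 had 36.0, 29.4 and 32.6 CPM in WT against 26.6, 31.2 and 23.2 CPM in PYK2 KO BMDMs, with PYK2 KO 3 inside the WT range (log2 fold change -0.28; -0.18 without PYK2 KO 4). Mrpl4, the counterpart of a bacterial protein of the peptide exit tunnel, had a log2 fold change of -0.15 (SE 0.089; -0.08 without WT 1).

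Mrps26, a mitochondria-specific protein of the small subunit, had the smallest p-value among the lower members. Its levels were 106.5, 115 and 111 CPM in WT against 74.8, 108 and 90.3 CPM in PYK2 KO BMDMs, so PYK2 KO 3 fell inside the WT range. On the log2 scale the change was -0.29 (SE 0.11; adjusted p = 0.702 in edgeR's quasi-likelihood fit, Benjamini-Hochberg). Without WT 5 (-0.26) or without PYK2 KO 2 (-0.16) the unadjusted p-value was no longer under 0.05. The bacterial-type gene Mrps2 had 30.1, 28.8 and 26.3 CPM in WT against 21.5, 23.2 and 25.04 CPM in PYK2 KO BMDMs, which did not overlap, and a log2 fold change of -0.29 (SE 0.14). Mrps7, a protein of the head of the small subunit, had a log2 fold change of -0.14 (SE 0.095), which ran from -0.08 without WT 5 and -0.09 without PYK2 KO 4 to -0.21 without PYK2 KO 2.

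By p-value, Mrps21 and Mrps31 followed Mrps36 among the small subunit genes above 0. Mrps21 had 90.9, 98.0 and 88.7 CPM in WT against 103.9, 102.2 and 101.3 CPM in PYK2 KO BMDMs, and the PYK2 KO libraries lay just above the WT range. Its log2 fold change was 0.15 (SE 0.086), and its 95% interval, from -0.04 to 0.33, included 0. Mrps31 had 18.4, 19.0 and 16.5 CPM in WT against 20.5, 18.4 and 26.8 CPM in PYK2 KO BMDMs, with overlapping libraries (log2 fold change 0.29; 0.11 without PYK2 KO 4).

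Mrps36, which carries a ribosomal symbol but belongs to the 2-oxoglutarate dehydrogenase complex, had 15, 18 and 22 counts in WT and 21, 30 and 37 in PYK2 KO BMDMs. In CPM this was 5.5 ± 1.99 in WT and 9.4 ± 2.32 in PYK2 KO (mean ± SD, n = 3 mice each), and PYK2 KO 2 fell inside the WT range. On the log2 scale the change was 0.80 (SE 0.30; adjusted p = 0.650 in edgeR's quasi-likelihood fit, Benjamini-Hochberg). The unadjusted p-value was above 0.05 (0.0503 to 0.0862) without WT 1, WT 5, PYK2 KO 3 or PYK2 KO 4, where the log2 fold change was 0.58, 0.75, 0.72 and 0.66. The table also lists a pseudogene copy, Mrps36-ps1, with 2, 5 and 2 counts in WT and 6, 3 and 2 in PYK2 KO BMDMs, and reads shared between the copies cannot be told apart.

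**Figure D3:**
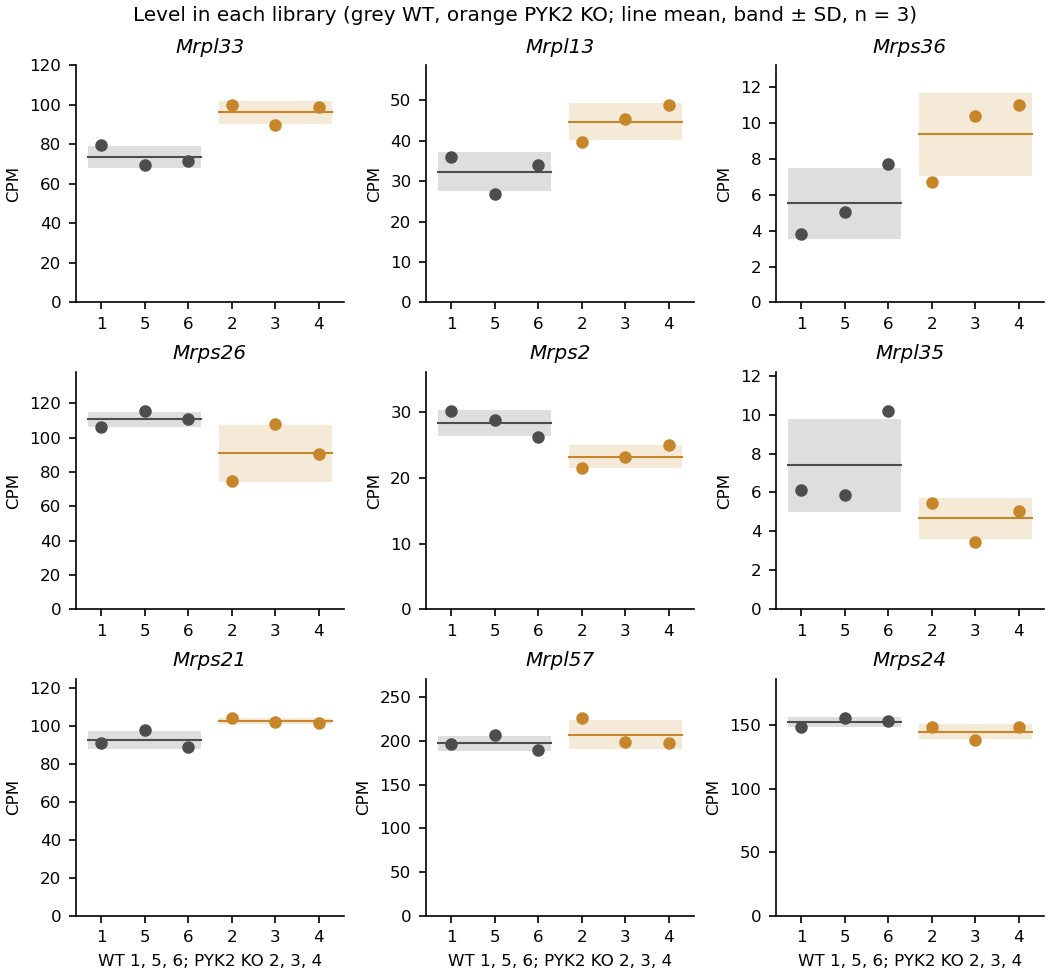
Level in CPM (vertical axes, from 0) of 9 members in each library (horizontal axes), with WT libraries 1, 5 and 6 in grey and PYK2 KO libraries 2, 3 and 4 in orange; lines are means and bands ± SD over 3 mice. Mrpl33, Mrpl13 and Mrps21 are higher and Mrps2 and Mrpl35 lower in all PYK2 KO libraries, Mrps36 and Mrps26 overlap, and the abundant Mrpl57 and Mrps24 lie level.

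Several members were named for their role, whatever their values. Mrps12, the decoding-centre protein, had 101, 97.7 and 86.6 CPM in WT against 106.5, 96.3 and 94.2 CPM in PYK2 KO BMDMs (log2 fold change 0.05, SE 0.093). Mrpl12, a protein of the factor-binding stalk that has also been described to bind the mitochondrial RNA polymerase, had 105.5, 129 and 123 CPM in WT against 145, 119.5 and 103.7 CPM in PYK2 KO BMDMs (log2 fold change 0.04, SE 0.12). The genotypes overlapped for both genes. With 1 library left out, the log2 fold change ran from -0.0080 to 0.10 for Mrps12 and from -0.10 to 0.15 for Mrpl12. The release factor-like Mrpl58 had a log2 fold change of 0.12 (SE 0.11; 0.03 without WT 1 and 0.23 without WT 5) and Mrps28, of the small subunit, 0.08 (SE 0.11; from -0.04 without PYK2 KO 2 to 0.16 without PYK2 KO 4). Mrps15 and Mrps16, named for their levels, had log2 fold changes of -0.07 and 0.10, and Mrpl57 had 0.07 (SEs 0.089, 0.093 and 0.084). These values moved when single libraries were left out: Mrps15 had -0.02 without WT 5 and -0.14 without WT 6, Mrps16 had 0.03 without WT 1 and 0.17 without WT 6, and Mrpl57 had 0.0033 without PYK2 KO 2 and 0.11 without PYK2 KO 4.

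Mrps18a, Mrps18b and Mrps18c are paralogs of a single bacterial protein that occupy different places in the mitochondrial ribosome. Their counted levels differed widely: Mrps18a had 100.5 ± 5.67 CPM in WT against 107 ± 5.47 CPM in PYK2 KO BMDMs, Mrps18c had 18.9 ± 4.67 and 20.4 ± 2.25 CPM (SD, n = 3 mice each), and Mrps18b was at 2 to 8 counts per library. Counts at the 3′ end depend on where the end of each gene is annotated, and that of Mrps18b overlaps an exon of Gm16279 on the opposite strand. The low counts of Mrps18b therefore do not show that it was hardly expressed. Mrps18a lay above Mrps18c in every library. The log2 fold change was 0.09 for Mrps18a (SE 0.087; 0.04 without WT 6 or PYK2 KO 2) and 0.14 for Mrps18c (SE 0.19; from -0.02 without WT 1 to 0.33 without WT 6).

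Summed over all members, the levels were 5587 ± 112 CPM in WT against 5598 ± 153 CPM in PYK2 KO (mean ± SD, n = 3 mice each), a ratio of 1.00. Members made up 0.547%, 0.558% and 0.559% of all counts in the WT libraries against 0.567%, 0.548% and 0.561% in the PYK2 KO libraries. The Mrpl genes summed to 3893 ± 70.7 CPM in WT against 3923 ± 128 CPM in PYK2 KO BMDMs and the Mrps genes to 1695 ± 42.0 and 1675 ± 30.1 CPM. The genotypes differed in each of these sums by less than the SD between mice.

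The balance of the subunits was compared within libraries, which needs no scaling between them. Mrps genes took 30.2%, 30.5% and 30.3% of the member counts in WT and 29.6%, 30.4% and 29.8% in PYK2 KO BMDMs. PYK2 KO 2 and PYK2 KO 4 lay below the WT range and PYK2 KO 3 inside it. The log2 ratio of small to large subunit counts was -1.20 ± 0.011 in WT and -1.23 ± 0.030 in PYK2 KO (mean ± SD, n = 3 mice each), a difference of -0.03 against a pooled SD of 0.022. That difference was -0.016 without PYK2 KO 2 and -0.044 without PYK2 KO 3. With the genes assigned by position in the ribosome instead (Mrps18a and Mrps30 to the large subunit, Mrps36 left out), the difference was -0.04 with a pooled SD of 0.024, and PYK2 KO 3 still lay inside the WT range. Its sign differed from that of the median Mrps fold change (0.015). The ratio was not tested.

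**Figure D4:**
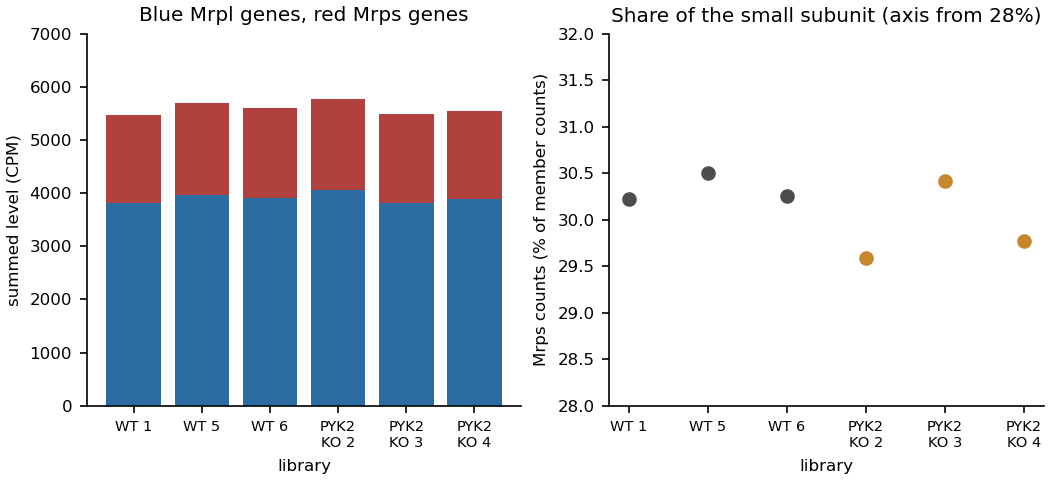
Left, summed level in CPM of Mrpl genes (blue) and Mrps genes (red) in each library; right, percent of member counts from Mrps genes (vertical axis from 28%), with WT in grey and PYK2 KO in orange. The stacked bars are of even height, and the share of Mrps genes ranges from 29.6% (PYK2 KO 2) to 30.5% (WT 5).

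None of the genes listed for building and using the mitochondrial ribosome passed the adjusted threshold. Subunits with other symbols were Dap3, Chchd1 and Aurkaip1, with log2 fold changes of -0.08, 0.17 and -0.05, and Ptcd3 and Gadd45gip1, which did not pass the filter. Of 24 assembly factors, among them GTPases, helicases and rRNA methyltransferases, 23 were tested, 14 above and 9 below 0, their median was 0.05 on the log2 scale, and none was at an unadjusted p-value under 0.05. The smallest p-value belonged to Fastkd2, an RNA-binding protein of mitochondrial RNA granules, with 41, 26 and 24 counts in WT and 30, 35 and 51 in PYK2 KO BMDMs (log2 fold change 0.49, SE 0.23). Its libraries overlapped between genotypes.

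Of 15 translation factors and their partners, 14 were tested, 9 above and 5 below 0 (median 0.04), none at an unadjusted p-value under 0.05, and the smallest p-value belonged to Guf1 (log2 fold change 0.32, SE 0.24). All 8 genes of mitochondrial DNA replication and transcription were tested, 5 above and 3 below 0 and none under 0.05. Twnk, which shares its start region with Mrpl43, had 52, 41 and 29 counts in WT and 29, 19 and 34 in PYK2 KO BMDMs (log2 fold change -0.42, SE 0.23). In CPM the lowest WT library (10.16) lay just above the highest PYK2 KO library (10.13) for Twnk, so the genotypes did not overlap. Mrpl43 (outside the rule for named genes) had a log2 fold change of -0.06 (SE 0.088). Mrpl46 and Mrps11, the pair of members with adjoining starts, had -0.0020 and -0.14 (SEs 0.13 and 0.14), and they too were chosen outside the rule.

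The transcripts that this ribosome translates, encoded in mitochondrial DNA, could be followed for 6 of 13 genes. They were divided evenly in direction (3 above and 3 below 0), their median on the log2 scale was -0.0012, and none was at an unadjusted p-value under 0.05. The smallest p-value belonged to mt-Nd4, a complex I subunit, with 348, 278 and 195 counts in WT and 218, 226 and 232 in PYK2 KO BMDMs (log2 fold change -0.12, SE 0.11). Of the other 7, 6 were at 0 in all libraries (mt-Nd3, mt-Nd4l, mt-Co2, mt-Co3, mt-Atp6 and mt-Atp8) although every respiring cell uses them, so their zeros do not measure expression. The rRNAs mt-Rnr1 and mt-Rnr2 had log2 fold changes of 0.07 and 0.17 (SEs 0.16 and 0.16).

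The median of the members (0.0018) lay nearer to 0 than those of the cytosolic ribosome and of oxidative phosphorylation, which are given for comparison. Cytosolic ribosomal protein genes (79 tested) had a median of 0.08 on the log2 scale, with 59 above and 20 below 0. At an unadjusted p-value under 0.05, 17 were higher and 1 lower (3.40% and 2.63% of all genes tested). Of the 79, 1 gene, Rps27, passed the adjusted threshold (log2 fold change 0.68). Nuclear genes of oxidative phosphorylation (73 tested) had a median of 0.03, with 51 above and 22 below 0, and 3 were higher and 1 lower at an unadjusted p-value under 0.05. The difference between the families was not tested.

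Markers of T, dendritic, B, erythroid and stromal cells were mostly absent or low, whereas some neutrophil markers were expressed. Of the T cell markers (Cd3d, Cd3e and Cd3g) 1 count was found in all, in PYK2 KO 2. Of the dendritic cell markers 4 of 5 were at 0, of the B cell markers Cd79b was tested (-0.24), and of the stromal markers Acta2 was (0.44), neither at an unadjusted p-value under 0.05. Of 8 neutrophil markers 5 were tested, 4 above and 1 below 0. S100a9 (0.85) and Mpo (1.19) were higher at an unadjusted p-value under 0.05, as were 3.40% of all genes tested. By mean level S100a8, S100a9 and Ngp lay above the median of all genes tested (31.0 CPM) in both genotypes, and Mpo and Camp below it. The summed level of the neutrophil markers was 109 to 157 CPM in WT against 118 to 207 CPM in PYK2 KO BMDMs. All 8 proliferation genes were above 0 (median 0.17), with Mki67 (0.25), Top2a (0.20) and Birc5 (0.44) at an unadjusted p-value under 0.05 (3.40% of all genes tested were higher at it). They summed to 554 to 644 CPM in WT against 636 to 729 CPM in PYK2 KO BMDMs. The part of these cells and of proliferation in the values of Mrpl33 and Mrpl13 was not tested.

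**Figure D5:**
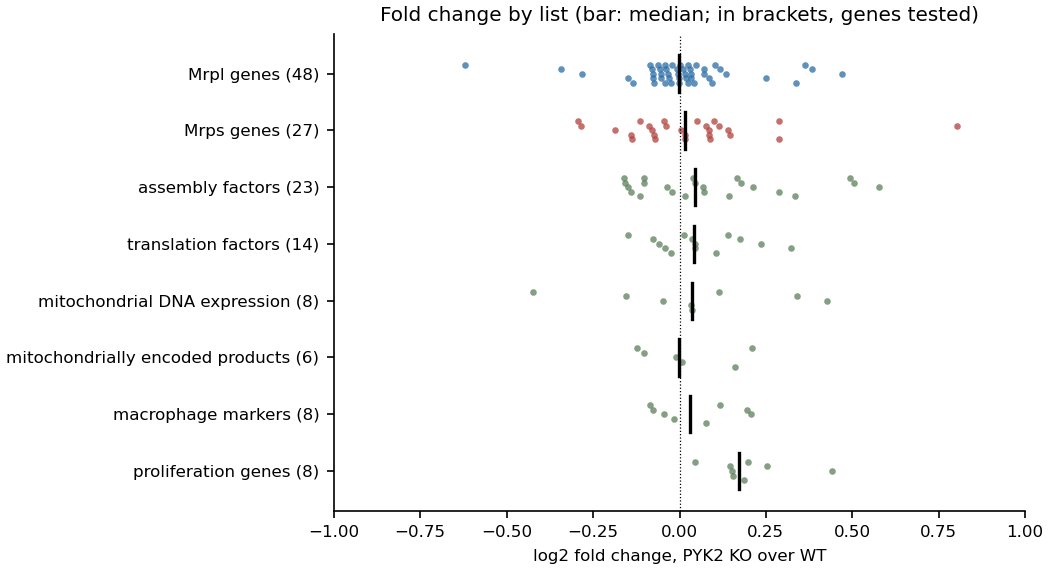
Log2 fold change of PYK2 KO over WT BMDMs (horizontal axis) for each gene tested (points) of the Mrpl and Mrps genes and of 6 other lists (vertical axis, number of genes in brackets), with black bars at the medians. The medians lie between -0.0019 and 0.05 for the Mrpl and Mrps genes, the assembly factors, the translation factors, mitochondrial DNA expression, mitochondrially encoded products and the macrophage markers, and the median of the proliferation genes is 0.17.

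Neighbouring annotation could affect the counts of some members. In the last 500 bases of the transcript, where these libraries place their reads, 2 members overlapped an exon of another gene on the same strand (Mrpl51 and Mrpl53) and 9 on the opposite strand, among them Mrpl12, Mrps7 and Mrps18b. Mrpl33, Mrpl13, Mrps36 and Mrps26 were not among these 11. Whether counting used strand was not given in the sources used here. The pseudogene Mrpl23-ps1 had 76, 14 and 14 counts in WT and 25, 11 and 16 in PYK2 KO BMDMs, so a single library, WT 1, carried most of its WT counts. Its parent Mrpl23 (outside the rule for named genes) had 40, 27 and 19 counts in WT and 21, 33 and 38 in PYK2 KO BMDMs. These values of Mrpl23 are uncertain because of the pseudogene.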

How the data were processed

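The authors made bulk MARS-seq libraries from BMDM RNA, mapped reads to mm10 with cutadapt and STAR in the UTAP pipeline, and deposited raw whole-number counts per gene. Whether molecular identifiers were collapsed was not given in the sources used here, so intervals may not cover amplification error. Counts of the 6 libraries were fitted on genotype alone with edgeR 4.0.16 (in R 4.3.3): low counts were removed with filterByExpr, libraries scaled by TMM, and 9815 genes compared by the quasi-likelihood F test, with p-values adjusted over all of them (Benjamini-Hochberg, threshold 0.05). Standard errors were the fold change over the square root of F, and 95% intervals used its degrees of freedom. Alternatives were DESeq2 1.42.0, limma 3.58.1 voom, other scalings and filters, subunits by position, and leaving out each library. The members and lists were chosen with earlier results of these data known. Named genes were, per subunit, the 6 smallest p-values and the 4 highest levels, 9 chosen for role and those that failed the filter. Other members given with counts or fold changes are said to be outside the rule or chosen after their values were seen. The fit was also run on simulated counts with the same spread for every gene, so that run does not measure error rates in these libraries.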

Additional observations from a re-analysis of the deposited data

How the results depend on the processing

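No paired analysis was possible because the genotypes share no replicate number. The number of members past the adjusted threshold was 0 under RLE scaling, library totals only, DESeq2, limma voom, at least 10 counts in every library and with each library left out, and 1 without the filter on low counts (Mrpl33, log2 fold change 0.377). The number lower at an unadjusted p-value under 0.05 was 1, became 2 without the filter and 2 with at least 10 counts in every library, and ran from 0 (without PYK2 KO 2) to 3 (without WT 1 or PYK2 KO 3) with 1 library left out. The number higher ran from 2 to 4. With 1 library left out, the median log2 fold change ran from -0.03 to 0.016 for the Mrpl genes and from -0.032 (without PYK2 KO 2) to 0.044 (without WT 5) for the Mrps genes, and the log2 ratio of small to large subunit counts, PYK2 KO minus WT, from -0.044 to -0.016. Of the 25 named members, the sign turned under library totals only for Mrpl14 (0.0061), and with 1 library left out for Mrpl14 (-0.060 to 0.054), Mrpl20 (-0.075 to 0.073), Mrpl28 (-0.10 to 0.031), Mrpl12 (-0.10 to 0.15), Mrps12 (-0.0080 to 0.10), Mrps18c (-0.024 to 0.33) and Mrps28 (-0.036 to 0.16). The other values, 285 of 300, kept direction and side of the threshold. Mrpl33 and Mrpl13 kept an unadjusted p-value under 0.05 in every fit. Over all genes, 159 passed without the filter and 14 to 34 with 1 library left out, against 25. Depth limits the members with few counts, since the least abundant tested member had 67 counts over the 6 libraries. The cause of these changes was not tested.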
